A study of Mus musculus with 14 samples.

Results

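Interferon-stimulated genes are the genes that a cell switches on when an interferon binds its receptor. A set of 48 such genes was followed here in the bulk transcriptome of 14 mouse mammary tumors, each gene being the row of its symbol among the 56414 genes listed. By their known roles, 40 of the 48 were taken as type I antiviral genes, 7 as GTPases of the interferon gamma response (*Gbp2*, *Gbp3*, *Gbp5*, *Gbp7*, *Iigp1*, *Irgm1* and *Igtp*), and *Irf1* was kept apart as a transcription factor that answers to both interferons. All 48 had a row and all 48 passed the filter on low values in every comparison, although the row of *Herc6* also carries a second symbol, 4930533I22Rik, so that its reads may come from either locus. The listed span of *Ifi27* lies inside that of another row, *Ifi27l2a*, and that of *Ifit1* inside that of *Ifit1bl1*. How reads in these shared spans were assigned was not checked.

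Type I interferons, such as the product of *Ifnb1*, signal through a receptor that holds IFNAR1 and drive a complex that holds IRF9 onto interferon-stimulated response elements in promoters. Interferon gamma, made chiefly by T and NK cells, uses another receptor and acts on gamma-activated sites, with IRF1 as a second wave. Antiviral genes such as *Isg15*, *Mx1* and the *Ifit* genes are classical type I targets, whereas the guanylate-binding proteins and immunity-related GTPases are classical targets of interferon gamma, but each set answers in part to the other cytokine.

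M/D-driven tumors arose in female C57Bl/6 mice that had received a 50 mg, 90-day slow-release pellet of medroxyprogesterone acetate at 6 to 9 weeks of age and 6 gavages of 200 µl of dimethylbenz[a]anthracene at 5 mg per ml. AT3 tumors grew from 1000000 cells of a single mouse mammary carcinoma line placed under the skin, so that all AT3 tumors come from 1 cell line. Once a lesion reached 0.25 cm2, mice were left untreated or drank 0.5% nicotinamide (NAM), a form of vitamin B3, for 10 days. The groups were untreated M/D (4 tumors), NAM-treated M/D (4 tumors), untreated AT3 (3 tumors) and NAM-treated AT3 (3 tumors), with no engineered allele of the host and no interferon treatment named for any of them. Tumors are named by group and by the replicate number of their label.

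Depth ranged from 40936868 to 84178009 reads per tumor, recovered from the normalized values. NAM-treated M/D 1 was the only M/D tumor of experiment 2 (the other 7 are of experiment 1, and all AT3 tumors of experiment 3) and it stood apart. The summed normalized count of 5 B cell markers was 190641 in that tumor, against 163.2 to 346.1 in the other NAM-treated M/D tumors, and the sum of 9 epithelial markers was 7367 against 259521 to 624768. Fold changes in M/D tumors are thus given with it and, right after them, without it. In bulk tissue, fewer cells of a type and less RNA per cell cannot be told apart. A normalized count is a read count divided by the size factor of its tumor. Fold changes are differences of means of log2(normalized count + 1), tested with limma, and a gene was called where the unadjusted p did not exceed 0.05 and the fold was 1.5 or more in either direction. The p adjusted by Benjamini-Hochberg over all genes tested is given beside.

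Promoter sequence was not used in choosing the genes, and it shows how far the binding sites of both pathways mark them. RefSeq promoters (GRCm38.p6, 250 bases before to 50 bases after the start) were at hand for 39 of the 48 genes and for 27025 genes in all. The core of the interferon-stimulated response element, taken as GAAA, any 2 bases and GAAA again on either strand, was found in 20 of the 39 (51.3%) against 3.99% of all promoters. It was present in 14 of 32 type I antiviral genes (43.8%) and in 6 of 6 GTPases. The gamma-activated site, TTCNNNGAA, which is its own reverse complement, was found in 13 of the 39 (33.3%) against 9.55% of all promoters, in 9 of 32 type I antiviral genes (28.1%) and in 3 of 6 GTPases (50%). A match of these letters is not a measured binding site, and the motifs can overlap each other.

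The promoters shown here belong to genes whose levels are described further on. Each is a stretch of 120 bases before the RefSeq start, written along the strand of the gene, with every match of either motif in capitals. In the type I antiviral genes the capitals mark response elements, with 3 overlapping matches in *Isg15*, 2 in each of *Ifit1* and *Ifit3* and 1 in *Slfn5*, where the match lies in a run rich in A:
Isg15, chr4:156200819-156200938, minus strand: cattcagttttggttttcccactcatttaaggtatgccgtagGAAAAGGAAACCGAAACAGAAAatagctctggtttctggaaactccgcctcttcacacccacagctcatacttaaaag
Ifit1, chr19:34640769-34640888, plus strand: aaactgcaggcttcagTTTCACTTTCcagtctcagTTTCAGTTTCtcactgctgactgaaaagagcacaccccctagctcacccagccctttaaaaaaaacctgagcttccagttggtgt
Ifit3, chr19:34583373-34583492, plus strand: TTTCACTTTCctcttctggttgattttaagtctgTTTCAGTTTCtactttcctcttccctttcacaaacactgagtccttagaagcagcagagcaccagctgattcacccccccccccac
Slfn5, chr11:82951947-82952066, plus strand: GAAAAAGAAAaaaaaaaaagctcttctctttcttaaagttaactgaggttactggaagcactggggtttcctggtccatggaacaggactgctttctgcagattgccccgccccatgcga

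The GTPases *Gbp7* and *Igtp* hold motifs of both kinds in the same stretch, whereas *Irf1* holds a gamma-activated site alone. In *Gbp7*, 2 gamma-activated sites come before 1 response element. In *Igtp*, 1 gamma-activated site lies next to 1 response element:
Gbp7, chr3:142530216-142530335, plus strand: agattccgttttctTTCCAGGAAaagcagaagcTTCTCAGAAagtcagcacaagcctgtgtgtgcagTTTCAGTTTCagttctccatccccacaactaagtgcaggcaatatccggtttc
Igtp, chr11:58199436-58199555, plus strand: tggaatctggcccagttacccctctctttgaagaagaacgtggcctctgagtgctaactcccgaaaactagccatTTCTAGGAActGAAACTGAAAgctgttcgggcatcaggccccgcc
Irf1, chr11:53769894-53770013, plus strand: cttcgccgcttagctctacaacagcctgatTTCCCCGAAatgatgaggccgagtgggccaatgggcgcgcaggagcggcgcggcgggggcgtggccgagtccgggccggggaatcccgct

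The first comparison asked whether 10 days of NAM shifted interferon-stimulated genes in M/D-driven tumors. Of the 48 genes, 0 were called higher and 1, *Samhd1*, was called lower by limma (2.08%), against 6.22% of the 21700 genes tested (3.03% higher and 3.19% lower). The same 1 gene alone had an unadjusted p under 0.05 whatever the fold, and edgeR and DESeq2 on the recovered reads also gave 0 higher and 1 lower. A log2 fold change above 0 was seen in 22 of 40 type I antiviral genes (median 0.078) and in 7 of 7 GTPases (median 0.39, range 0.21 to 0.64), against 51.1% and a median of 0.012 over all genes tested. Without NAM-treated M/D 1, the counts were 16 of 40 (median −0.077) and 6 of 7 (median 0.47), and without NAM-treated M/D 4 they were 12 of 40 (median −0.14) and 4 of 7 (median 0.091). Without untreated M/D 4, 8 of 40 type I antiviral genes (median −0.27) and 6 of 7 GTPases (median 0.087) were above 0, and *Rsad2* was called lower as well. With a trend with transcript length removed, as described below, 31 of 40 type I antiviral genes (median 0.20) and 7 of 7 GTPases (median 0.54) were above 0. The median over all genes tested was then 0.12.

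*Samhd1* (GSMG0023788, chromosome 2, 157097529 to 157135222 on mm10) encodes a dNTP triphosphohydrolase that restricts retroviruses in myeloid cells. Its normalized count was 22677, 15681, 14169 and 16145 in untreated M/D 1 to 4, against 6679, 7832, 8277 and 16081 in NAM-treated M/D 1 to 4. In 3 of 4 NAM-treated tumors it lay below every untreated tumor, while NAM-treated M/D 4 lay within their range. *Samhd1* was 1.85-fold lower with NAM (log2 fold change −0.89, SE 0.30, adjusted p = 0.73 by limma), and was called lower at −0.74 without NAM-treated M/D 1. The exact two-sided permutation test gave p = 0.086, where 0.029 is the smallest p that 4 tumors against 4 allow. The call was made under all 18 alternatives run, with adjusted p of 0.31 to 0.99.

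None of the remaining 47 genes was called, and untreated and NAM-treated tumors overlapped in all 48 (0 genes without overlap, against 4.43% of all genes tested). *Isg15* (GSMG0028769, chromosome 4, 156199424 to 156200818), a ubiquitin-like modifier, was at 13175, 12179, 5766 and 2871 in untreated M/D tumors and at 3737, 5894, 3942 and 8451 in NAM-treated ones. The groups overlapped, with both extremes among the untreated tumors (log2 fold change −0.46, SE 0.51, adjusted p = 0.85 by limma, and −0.305 without NAM-treated M/D 1). *Ifit1*, which binds viral RNA that lacks a host cap, was at 7738, 7820, 3979 and 2357 without NAM and at 1665, 3474, 3133 and 10124 with it (log2 fold change −0.41, SE 0.59, adjusted p = 0.89 by limma, and −0.026 without NAM-treated M/D 1, its lowest tumor). Here both extremes were NAM-treated tumors.

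*Rsad2* encodes viperin, which makes a chain-terminating nucleotide. It was at 812.3, 877.9, 506.9 and 216.5 in untreated M/D tumors and at 213.9, 253.3, 292.7 and 602.5 in NAM-treated ones, and its log2 fold change of −0.76 (SE 0.52) was the next lowest of the 48 after *Samhd1* (−0.575 without NAM-treated M/D 1). *Mx2*, a dynamin-like antiviral GTPase, had the highest log2 fold change of the 48 (0.77, SE 0.64, adjusted p = 0.80 by limma, and 0.45 without NAM-treated M/D 1). It was at 612.8, 423.7, 354.5 and 107.8 without NAM and at 1053, 326.4, 281.7 and 878.4 with NAM, with NAM-treated M/D 1 and 4 above every untreated tumor and NAM-treated M/D 2 and 3 below 3 of them.

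*Mx1*, the paralog of *Mx2*, was at 476.8, 234.7, 351.4 and 165.0 in untreated and at 406.6, 244.8, 237.5 and 673.9 in NAM-treated M/D tumors (log2 fold change 0.32, SE 0.46). *Oas2*, whose product makes 2-5A from double-stranded RNA, was at 1702, 1491, 1088 and 450.7 without NAM and at 2384, 808.6, 623.2 and 3508 with NAM (log2 fold change 0.44, SE 0.64). *Usp18*, which removes ISG15 from proteins and dampens the type I receptor, was at 4252, 5821, 1966 and 787.0 against 4992, 1823, 1457 and 3324 (log2 fold change 0.05, SE 0.66). In each of these genes, the lowest of the 8 tumors was untreated M/D 4, and NAM-treated M/D 2 and 3 lay within the untreated range. *Irf7*, the regulator that amplifies type I interferon production, was at 19628, 27299, 9723 and 5151 against 9649, 14452, 7697 and 32535 (log2 fold change 0.10, SE 0.61). Without NAM-treated M/D 1, the log2 fold change was 0.26 for *Mx1*, 0.20 for *Oas2*, 0.26 for *Irf7* and −0.27, with the sign turned, for *Usp18*.

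Among the GTPases, *Iigp1*, an immunity-related GTPase that acts on vacuoles of intracellular pathogens, was at 33678, 18892, 10393 and 8461 in untreated M/D tumors and at 5947, 14716, 30728 and 58748 in NAM-treated ones. *Igtp* (GSMG0005234, chromosome 11, 58199555 to 58207591), of the same family, was at 23236, 15683, 7316 and 5273 against 9640, 8611, 12673 and 37016. *Irgm1*, a regulator of that family, was at 29607, 18521, 10239 and 9062 against 15911, 11506, 18360 and 27342. The groups overlapped in all 3 genes, with NAM-treated M/D 4 the highest tumor for *Iigp1* and *Igtp* and untreated M/D 1 for *Irgm1*. Their log2 fold changes were 0.37 (SE 0.72), 0.37 (SE 0.60) and 0.21 (SE 0.42), with adjusted p of 0.92, 0.90 and 0.93 by limma. Without NAM-treated M/D 1, the lowest tumor for *Iigp1*, they were 0.96, 0.55 and 0.26, and none was called.

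*Gbp2*, a guanylate-binding protein, was at 31897, 16932, 15911 and 11605 in untreated and at 25002, 12906, 21010 and 55236 in NAM-treated M/D tumors (log2 fold change 0.48, SE 0.47, adjusted p = 0.83 by limma). *Irf1* was at 6973, 6101, 3970 and 3578 against 5736, 4217, 7665 and 10481 (log2 fold change 0.42, SE 0.34, adjusted p = 0.80 by limma). For both genes the highest tumor was NAM-treated M/D 4 and the lowest was untreated M/D 4, and the log2 fold change was 0.47 and 0.49 without NAM-treated M/D 1. *Ifng* itself was at 114.3, 56.5, 52.6 and 57.9 without NAM and at 13.6, 57.2, 98.5 and 220.6 with NAM, its lowest value being that of NAM-treated M/D 1. *Ifnb1* was nearly undetected, at 0 in 6 of 8 M/D tumors and at 3.0 and 1.8 in the other 2.

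Individual M/D tumors thus differed widely, and most of the genes lay on the same side of the mean in a given tumor. Within the untreated M/D group, the highest tumor was a median of 3.26 times the lowest for type I antiviral genes and 4.06 times for GTPases, against 1.99 times over all genes tested. The ratio ran from 1.399 for *Slfn5* to 10.2 for *Ifi44* among the type I antiviral genes and from 2.75 for *Gbp2* to 4.96 for *Gbp3* among the GTPases. Untreated M/D 4 was the lowest of the 8 tumors for 28 of 40 type I antiviral genes and for 5 of 7 GTPases, against 9.20% of all genes tested. *Ifitm1* and *Isg20*, chosen after their values were seen, went the other way and were highest in that tumor, *Ifitm1* at 3207 against 478.8 to 1856 in the other untreated tumors and *Isg20* at 3513 against 1396 to 2773.

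Relative to the untreated mean of the model, the median deviation of the 40 type I antiviral genes on the log2 scale was 0.66, 0.52, −0.21 and −0.97 in untreated M/D 1 to 4, and 0.55, −0.45, −0.45 and 0.66 in NAM-treated M/D 1 to 4. For the 7 GTPases it was 1.09, 0.30, −0.33 and −0.86, and then 0.49, −0.40, 0.23 and 1.63. Above 0 were 38, 37, 8 and 2 of the 40 type I antiviral genes in the untreated and 26, 5, 5 and 36 in the NAM-treated tumors. Both sets thus ordered the 4 untreated tumors alike. Among M/D tumors, NAM-treated M/D 3 and 4 were those in which the sets lay farthest apart, the GTPases being 0.68 and 0.97 above the type I antiviral genes. In the same tumors, *Ifng* was at 98.5 and 220.6, against 52.6 to 114.3 in untreated M/D tumors. The summed count of 8 T and NK cell markers was 3536 and 11274, against 2508 to 6968 in untreated M/D tumors. Untreated M/D 1, with *Ifng* at 114.3 and a marker sum of 6968, had the GTPases 0.43 above the type I antiviral genes. The sum of the 9 epithelial markers ran from 320068 and 383154 in untreated M/D 1 and 2 to 612931 and 1021624 in untreated M/D 3 and 4, and the part of cell makeup in these deviations was not tested.

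**Figure D1:**
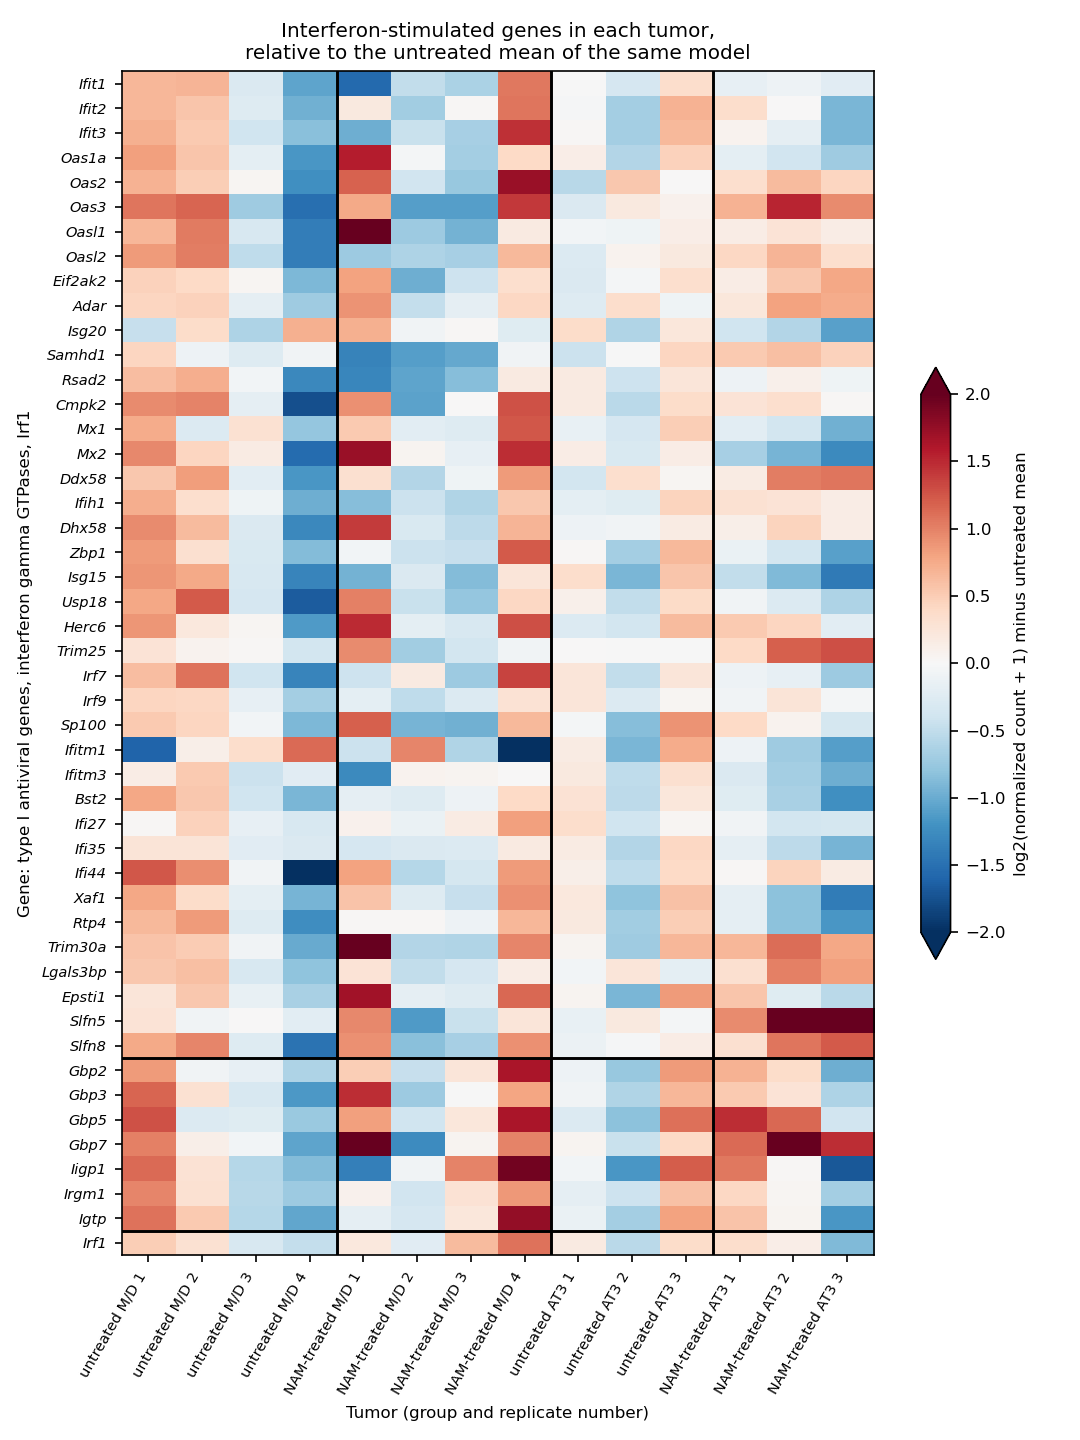
Heatmap of the 48 genes (rows, by role, with lines between type I antiviral genes, GTPases and Irf1) in the 14 tumors (columns, with lines between groups). Color is the difference of log2(normalized count + 1) from the untreated mean of the same model, cut at −2 and 2. Untreated M/D 4 is blue in nearly every row and NAM-treated M/D 4 is red in most, while the AT3 tumors are paler, with Slfn5 and Gbp7 the reddest rows in NAM-treated AT3 tumors.

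The same question was asked in AT3 tumors, where 9 of the 48 genes were called higher with NAM and 2 lower (22.9%), against 23.1% of the 19281 genes tested (12.2% higher and 10.9% lower). The share of interferon-stimulated genes called was thus that of all genes. Those higher were *Slfn5*, *Gbp7*, *Oas3*, *Trim25*, *Slfn8*, *Trim30a*, *Ddx58*, *Lgals3bp* and *Adar*, and those lower were *Mx2* and *Isg15*. With limma, 0 of the 48 passed an adjusted p of 0.05 (smallest 0.17), and edgeR gave 0 as well, whereas DESeq2 on the same reads gave 6 (*Slfn5*, *Gbp7*, *Oas3*, *Trim25* and *Slfn8* higher, *Mx2* lower). Over all 19281 genes tested, 1 passed with limma, 0 with edgeR and 2047 with DESeq2. The median log2 fold change was 0.006 for type I antiviral genes (20 of 40 above 0) and 0.029 for GTPases (4 of 7 above 0), against −0.048 and 47.5% over all genes tested. Without NAM-treated AT3 1, 10 genes were called higher and 6 lower (33.2% of all genes tested in that setting were called), and limma's adjusted p was at most 0.05 for 7 of those higher and 1 of those lower. In that setting, 2498 of all 19301 genes tested passed the adjusted p. Without untreated AT3 2, 9 were called higher and 11 lower, of which 3 and 4 passed. Of all 18933 genes tested there, 35.7% were called and 2520 passed the adjusted p. Without NAM-treated AT3 2 or NAM-treated AT3 3, 5 genes were called higher and 1 lower (9.62% and 8.37% of all genes tested). The GTPase median was 0.15 with the length trend described next removed, 0.53 without NAM-treated AT3 3, 0.40 without untreated AT3 3 and −0.30 without NAM-treated AT3 1.

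In AT3 tumors, the log2 fold change followed transcript length across the 16429 genes with a known length (Spearman's rho = 0.59, genes are not replicates), whereas rho was −0.04 in M/D-driven tumors. After the trend with length had been removed from each tumor, 5 genes were called higher (*Slfn5*, *Slfn8*, *Gbp7*, *Oas3* and *Lgals3bp*) and *Mx2* lower. For each called gene, the value with the trend removed is given beside that without. Since 3 tumors against 3 allow no exact two-sided permutation p under 0.1, groups that do not overlap are stated as such, which was the case in 9 of 48 genes higher and 1 lower with NAM, against 22.6% of all genes tested in either direction. The summed normalized count of 4 leukocyte markers was 5011 to 8044 in untreated and 8238 to 9301 in NAM-treated AT3 tumors (2 of 4 genes called higher), and 3 of 6 macrophage and monocyte markers were called higher, the other 3 having log2 fold changes below 0, with sums of 23386 to 62684 and 29513 to 43156 that overlapped. Of 5 fibroblast and endothelial markers 3 were called higher (sums of 34875 to 121061 against 52907 to 145976), of 5 dendritic cell markers 1 (904.3 to 1557 against 1760 to 2356), and of 9 epithelial markers 2 were called higher and 2 lower (83850 to 103293 against 78959 to 87389). Of 4 B cell markers tested, 2 were called lower (sum of all 5, 133.0 to 142.0 against 47.9 to 74.1), and of 8 T and NK cell markers none in either direction (402.1 to 2443 against 543.6 to 1927). The part of these cells in the values below was not tested.

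*Slfn5* (GSMG0005651, chromosome 11, 82952094 to 82964850), a Schlafen protein of the nucleus, was at 120.3, 152.3 and 129.4 in untreated AT3 tumors and at 258.8, 595.5 and 665.8 in NAM-treated ones. Every NAM-treated tumor was above every untreated one. It rose 3.49-fold (log2 fold change 1.80, SE 0.38, adjusted p = 0.17 by limma), by 1.22 on the log2 scale with the length trend removed, and was called under all 16 alternatives. *Slfn8*, of the same family and the same stretch of chromosome 11, was at 842.0, 894.5 and 1009 against 1137, 1913 and 2127. It rose 1.83-fold (log2 fold change 0.87, SE 0.27, adjusted p = 0.17 by limma), by 0.60 with the trend removed, and was no longer called without NAM-treated AT3 3.

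*Gbp7* (GSMG0025044, chromosome 3, 142530336 to 142550151), a guanylate-binding protein, was at 468.1, 331.0 and 598.3 in untreated AT3 tumors and at 992.7, 2144 and 1265 in NAM-treated ones. The groups did not overlap. It rose 3.07-fold (log2 fold change 1.62, SE 0.34, adjusted p = 0.17 by limma), and the value was 1.07 with the trend removed. It was the only GTPase called. *Gbp5*, which was not called, was at 484.0, 331.0 and 1255 against 1638, 1294 and 447.7 (log2 fold change 0.75, SE 0.58).

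Among the nucleic acid effectors and sensors, *Oas3* (GSMG0031025, chromosome 5, 120753098 to 120777659), the largest of the 2-5A synthetases, was at 1849, 2581 and 2382 without NAM and at 3638, 6498 and 4311 with it. It rose 2.08-fold (log2 fold change 1.05, SE 0.26, adjusted p = 0.17 by limma), by 0.64 with the trend removed, with groups that did not overlap. *Ddx58*, which encodes the RNA sensor RIG-I, was at 2243, 3644 and 2973 against 3239, 5890 and 6085, so that NAM-treated AT3 1 lay within the untreated range (log2 fold change 0.75, SE 0.30, adjusted p = 0.18 by limma). *Adar*, an editor of double-stranded RNA, was at 1823, 2786 and 2064 against 2554, 3835 and 3678 (log2 fold change 0.59, SE 0.25, adjusted p = 0.20 by limma). With the trend removed, the log2 fold change was 0.52 for *Ddx58* and 0.014 for *Adar*, and neither was called. Each was called without 2 of the 6 tumors taken in turn (untreated AT3 2 and NAM-treated AT3 1) and not without any of the other 4.

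*Trim25* (GSMG0005754, chromosome 11, 88999402 to 89020293), a ubiquitin ligase of the RIG-I pathway, had the tightest untreated AT3 values, at 1019, 1014 and 1013, and was at 1339, 2334 and 2473 with NAM. It rose 1.95-fold (log2 fold change 0.96, SE 0.27, adjusted p = 0.17 by limma) with groups that did not overlap, and by 0.42 with the trend removed, when it was not called. *Lgals3bp*, a secreted glycoprotein that binds galectins, was at 10869, 13366 and 9810 against 14015, 22677 and 19925. It rose 1.64-fold (log2 fold change 0.72, SE 0.25, adjusted p = 0.17 by limma), the value being 0.91 with the trend removed, the only called gene whose change was larger that way, but was not called without untreated AT3 3, NAM-treated AT3 2 or NAM-treated AT3 3. *Trim30a* was at 1174, 688.4 and 1790 against 1790, 2463 and 1940, with overlapping groups (log2 fold change 0.85, SE 0.34, adjusted p = 0.18 by limma). Its log2 fold change was 0.65 with the trend removed, when it was not called. It was called without untreated AT3 3 or NAM-treated AT3 1 and not without any of the other 4 tumors.

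*Mx2* (GSMG0015358, chromosome 16, 97535304 to 97560905) went down. It was at 3262, 2383 and 3255 in untreated AT3 tumors and at 1853, 1540 and 1220 in NAM-treated ones, with no overlap. It fell 1.94-fold (log2 fold change −0.95, SE 0.24, adjusted p = 0.17 by limma), by 0.81 on the log2 scale with the trend removed, and the call was made whichever tumor was left out. *Mx1* was at 1358, 1192 and 2127 against 1302, 1171 and 777.4, and was not called (log2 fold change −0.51, SE 0.30, adjusted p = 0.30 by limma).

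*Isg15* was at 63447, 26255 and 72707 in untreated AT3 tumors and at 35082, 26701 and 18587 in NAM-treated ones. Untreated AT3 2 lay within the NAM-treated range. It fell 1.91-fold (log2 fold change −0.93, SE 0.40, adjusted p = 0.20 by limma), but by 0.22 with the trend removed, and was called without untreated AT3 2 or NAM-treated AT3 1 only. Without untreated AT3 2, whose *Isg15*, *Bst2*, *Xaf1* and *Ifit3* were the lowest of the untreated group, 11 of the 48 genes were called lower in place of 2, while the share of all genes called lower was 17.5% in place of 10.9%. The membrane factors *Ifitm1*, *Ifitm3* and *Bst2* (tetherin, which holds budding virions to the cell) had log2 fold changes of −0.64, −0.65 and −0.71, and 0.028, 0.095 and −0.011 with the trend removed. None of the 3 was called either way, but all 3 were among the 11 genes called lower without untreated AT3 2. *Ifitm3* and *Bst2* were also called lower with DESeq2 and with the replicate number as a block, and *Bst2* without NAM-treated AT3 1.

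**Figure D2:**
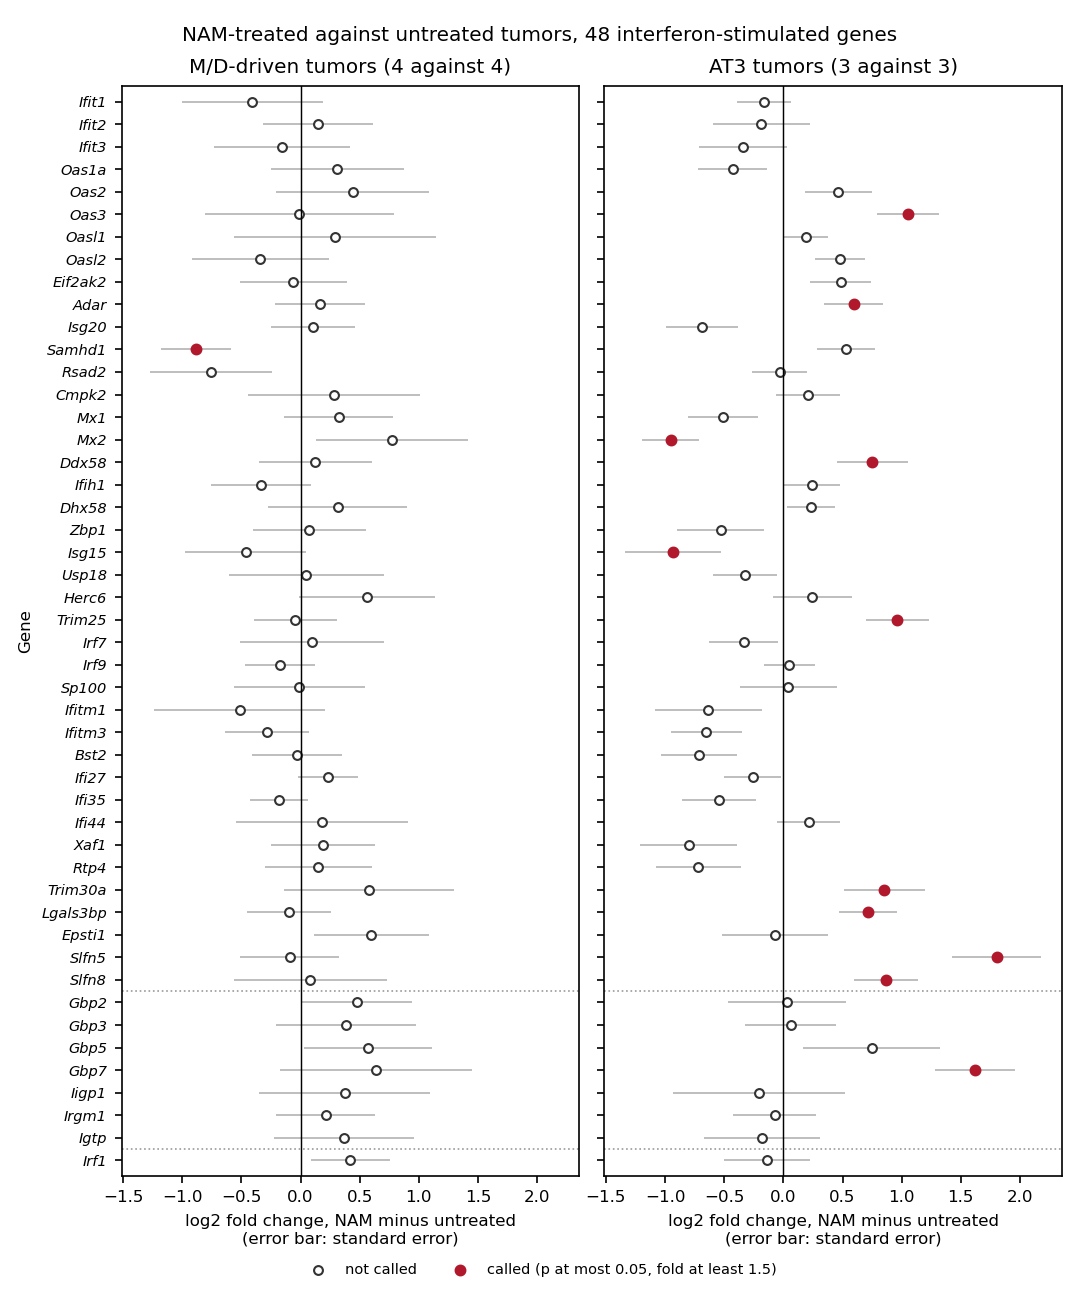
Log2 fold change of each of the 48 genes (rows), NAM-treated minus untreated, with its standard error, in M/D-driven tumors (left) and AT3 tumors (right). Filled points are called; only Samhd1 is filled on the left, while 9 filled points lie right of 0 and 2 left of 0 in AT3 tumors, with Slfn5 at 1.80 and Gbp7 at 1.62.

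The other genes shown in every tumor were not called in AT3 tumors. *Ifit1* stayed within a narrow range, at 15877, 12594 and 20283 without NAM and at 14243, 14860 and 13631 with it (log2 fold change −0.16, SE 0.23). *Rsad2* was at 2593, 1728 and 2711 against 2141, 2466 and 2157 (log2 fold change −0.031, SE 0.23). All NAM-treated values of both genes lay inside the untreated range. *Oas2* was at 2597, 5536 and 3808 against 4769, 5883 and 5126 (log2 fold change 0.46, SE 0.28), *Usp18* at 10408, 6955 and 12741 against 9243, 8032 and 6370 (−0.32, SE 0.27), and *Irf7* at 73171, 44062 and 73085 against 57454, 54984 and 37134 (−0.34, SE 0.29).

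Type I antiviral genes and GTPases differed in AT3 tumors in how closely they followed *Ifng*. *Ifng* was at 18.8, 8.12 and 79.8 in untreated and at 70.5, 30.1 and 4.96 in NAM-treated AT3 tumors, from 13, 8, 98, 58, 32 and 6 reads, so that untreated AT3 3 and NAM-treated AT3 1 were the highest and NAM-treated AT3 3 the lowest (log2 fold change −0.048, SE 1.03). *Igtp* was at 36927, 25490 and 71169 against 60437, 42095 and 18117. *Iigp1* was at 21467, 9930 and 51279 against 45967, 22677 and 6866. *Irgm1* was at 38847, 32895 and 66088 against 58336, 45141 and 27435, and *Gbp2* at 15603, 9842 and 30088 against 26933, 21437 and 8507.

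These 4 genes and *Gbp3* put the 6 AT3 tumors in exactly the order of *Ifng*, with all 15 pairs of tumors ordered alike. The same order was found in 5 of 7 GTPases and, among the 40 type I antiviral genes, in *Ifit2* alone, against 0.161% of all genes tested. The median number of pairs in the order of *Ifng* was 15 for the GTPases, 11 for the type I antiviral genes and 7 for all genes tested. *Irf1* had 14 such pairs, being at 6236, 3817 and 7115 against 7031, 6048 and 2993. *Gbp7* was not among those 5: its highest AT3 tumor was NAM-treated AT3 2. In M/D tumors the likeness was looser, with a median of 18 of 28 pairs for GTPases, 15 for type I antiviral genes and 14 for all genes, *Iigp1* having the most of the 48 (24). These counts are a description over 6 and 8 tumors, and the 8 T and NK cell markers, which include sources of *Ifng*, summed to 844.9, 402.1 and 2443 in untreated and to 1927, 891.8 and 543.6 in NAM-treated AT3 tumors; the part of T and NK cells was not tested.

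*Ifnb1* (GSMG0028038, chromosome 4, 88522025 to 88522794) had another pattern. It was at 397.1, 98.5 and 281.6 in untreated AT3 tumors and at 65.6, 37.6 and 23.96 in NAM-treated ones, from 274, 97 and 346 against 54, 40 and 29 reads. Every NAM-treated tumor lay below every untreated one. *Ifnb1* fell 5.59-fold (log2 fold change −2.48, SE 0.57, adjusted p = 0.17 by limma), and by 1.77 on the log2 scale with the length trend removed, when it was still called. Of the other 11 interferon genes looked up, *Ifng* is given above, and *Ifna4* was at 0 to 5.8 in all 14 tumors. *Ifnz* was at 0, 3.3, 0 and 17.7 in untreated M/D tumors against 6.8, 28.0, 8.3 and 12.0 in NAM-treated ones. In AT3 tumors *Ifnz* was at 5.8, 6.1 and 3.3 against 10.9, 9.4 and 9.9, with groups that did not overlap. These values rest on at most 23 reads per tumor, and *Ifnz* was not called higher or lower in either model.

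The median deviation of type I antiviral genes from the untreated mean was 0.027, −0.41 and 0.34 in untreated AT3 1 to 3 and 0.088, 0.087 and −0.22 in NAM-treated AT3 1 to 3. For the GTPases it was −0.094, −0.67 and 0.81, and then 0.69, 0.28 and −0.68. The GTPases thus spread more widely than the type I antiviral genes in both AT3 groups. The highest tumor was a median of 2.79 times the lowest for GTPases among untreated AT3 tumors and 3.17 times among NAM-treated ones, against 1.79 and 1.61 times for type I antiviral genes and 1.77 and 1.59 times for all genes tested. The ratio of type I antiviral genes was thus close to that of all genes in AT3 tumors, and also in NAM-treated M/D tumors (3.28 against 3.15 times, with 4.30 for GTPases). It was much the same in untreated M/D tumors (3.26 times), where the ratio of all genes was 1.995. NAM-treated M/D 1 was the highest M/D tumor for 28.1% of all genes tested and the lowest for 27.3%. The ratios without that tumor were not computed.

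**Figure D3:**
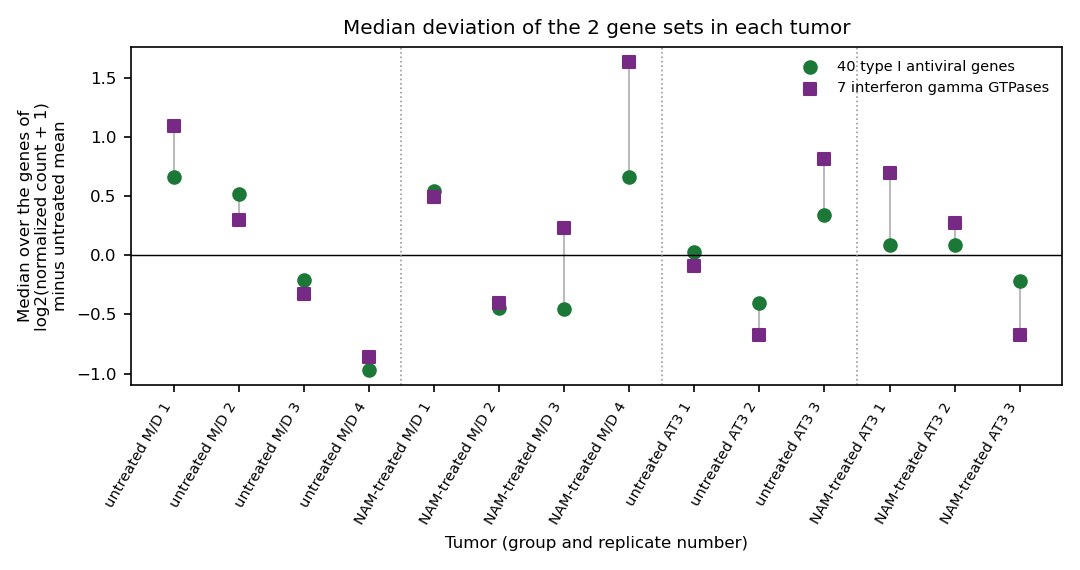
Median over 40 type I antiviral genes (circles) and over 7 GTPases (squares) of the difference of log2(normalized count + 1) from the untreated mean of the same model, in each of 14 tumors. Circles and squares lie within 0.43 of each other in untreated M/D tumors, and the squares reach 1.63 in NAM-treated M/D 4 and span −0.68 to 0.81 in AT3 tumors, where the circles span −0.41 to 0.34.

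Whether NAM acted differently in the 2 models was tested with the interaction term over all 14 tumors. It was called for 3 of the 48 genes (6.25%), against 14.9% of the 22710 genes tested (7.9% upwards and 6.97% downwards), and 20 of the 48 terms were above 0, against 48.6% of all genes tested. After adjustment, 0 of the 48 passed 0.05 by limma (3 at an unadjusted p of that size) or by edgeR. The NAM effect was higher in AT3 tumors for *Slfn5*, by 1.90 on the log2 scale (SE 0.62, adjusted p = 0.22 by limma), and for *Samhd1*, by 1.42 (SE 0.42, adjusted p = 0.20 by limma). *Samhd1* was at 2648, 3539 and 4807 in untreated AT3 tumors and at 5127, 5387 and 4923 in NAM-treated ones, which did not overlap (log2 fold change 0.53, SE 0.25, not called), whereas it fell in M/D tumors. For *Mx2* the NAM effect was lower in AT3 tumors, by −1.73 (SE 0.79, adjusted p = 0.33 by limma). Without NAM-treated M/D 1, the difference was 2.25 for *Slfn5*, 1.27 for *Samhd1* and −1.405 for *Mx2*, which was then not called. In that setting *Gbp7* (1.69) and *Trim25* (1.34) were called upwards as well, with 16.9% of all genes tested called. *Samhd1* kept its call under all 18 alternatives, *Slfn5* lost it with the length trend removed, and *Mx2* was called in 6 of the 18, being lost without any of 10 of the 14 tumors. Model and experiment cannot be told apart here.

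**Figure D4:**
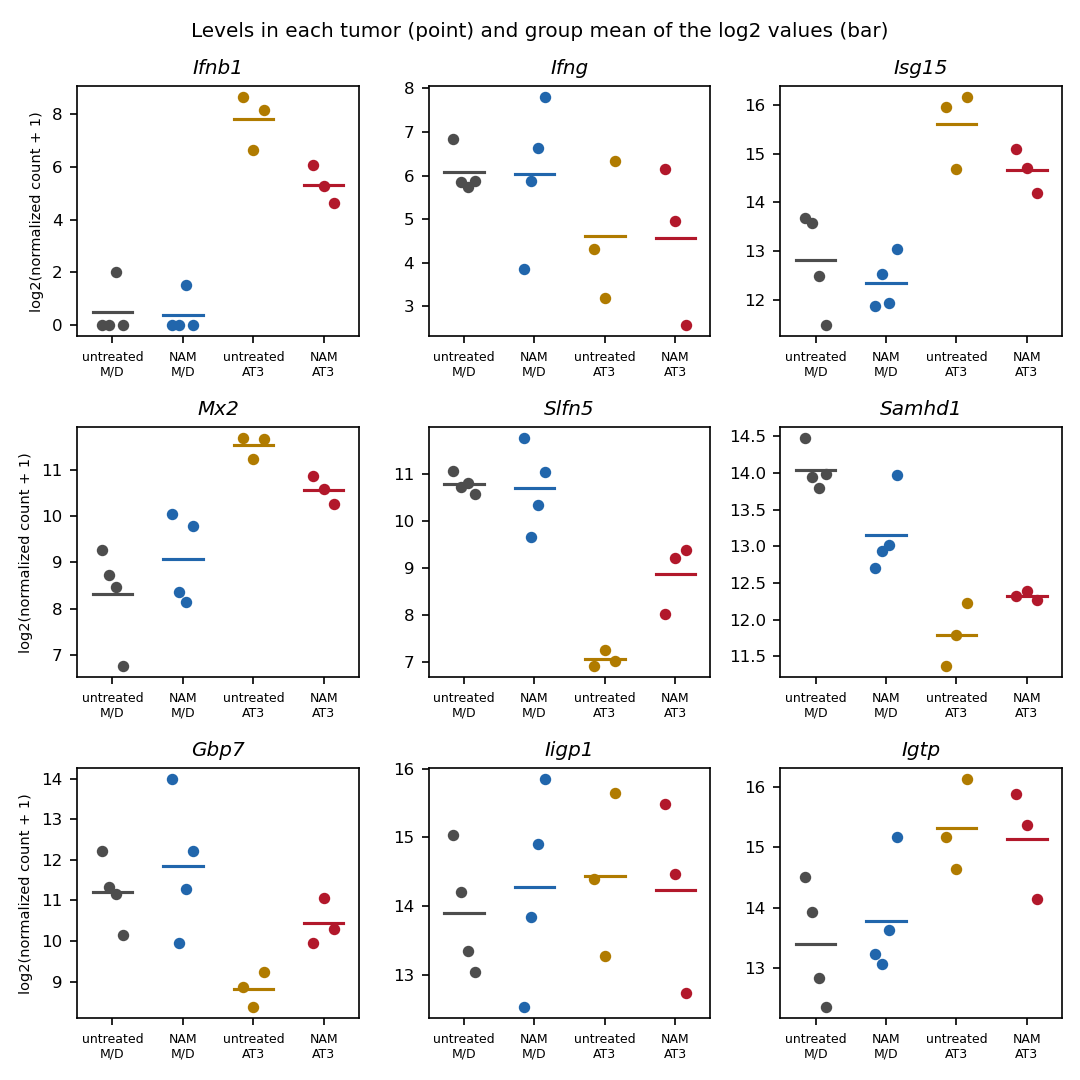
Log2(normalized count + 1) of 9 genes in each tumor (points) with the mean of each group (bars), the 4 groups being untreated and NAM-treated M/D (4 tumors each) and untreated and NAM-treated AT3 (3 each). Vertical axes differ between panels and do not start at 0. Ifnb1 is at or near 0 in M/D tumors and lower with NAM in AT3 tumors, Slfn5 and Gbp7 are higher with NAM in AT3 tumors, and Iigp1 and Igtp repeat the order of Ifng in AT3 tumors.

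The last comparison set the untreated tumors of both models side by side, after all 14 tumors had been rescaled together by the median of ratios. Type I antiviral genes were mostly lower in M/D than in AT3 tumors. Of the 48 genes, 26 were called lower and 5 higher in M/D tumors, against 26.4% of all 21713 genes tested called lower and 30.1% higher (56.5% in all). The adjusted p by limma was at most 0.05 for 28 of the 48, and for 11121 of all 21713 genes tested. Only 9 of the 48 log2 fold changes were above 0, against 51% over all genes tested. The genes lower in M/D tumors were 24 of 40 type I antiviral genes and 2 of 7 GTPases. The median log2 fold change was −1.65 for type I antiviral genes and −0.93 for GTPases, against 0.042 for all genes tested. The median of all genes depends on the scaling, being 0.22 with TMM factors, 0.48 with the values as deposited and −0.36 with the length trend removed (rho of 0.32 between log2 fold change and length), whereas the type I median was −1.49, −1.25 and −1.82 under the same 3 settings. Model, experiment, hormone, carcinogen and site of growth cannot be told apart in this comparison.

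The largest differences in this direction were in classical antiviral genes. On the rescaled values, *Mx2* was at 566, 398, 324 and 100 in untreated M/D tumors and at 4047, 2838 and 4037 in untreated AT3 tumors (12.2-fold lower, log2 fold change −3.61, SE 0.52, adjusted p = 0.00091 by limma). *Isg15* was at 12166, 11439, 5273 and 2669 against 78721, 31267 and 90176 (9.10-fold lower, log2 fold change −3.19, SE 0.58, adjusted p = 0.0025 by limma). *Xaf1*, an interferon-induced antagonist of the apoptosis inhibitor XIAP, was at 5166, 3957, 2613 and 1603 against 35979, 17143 and 46975 (10.1-fold lower, log2 fold change −3.34, SE 0.46, adjusted p = 0.00072 by limma). In these genes no M/D tumor reached the lowest AT3 tumor. Groups did not overlap in 25 of the 48 genes in this direction and in 4 in the other, against 53.8% of all genes tested in either direction.

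All 3 *Ifit* genes were lower in M/D tumors, from −2.11 for *Ifit1* to −3.08 for *Ifit2*. *Ifit2* was at 5421, 5108, 2824 and 1768 in M/D tumors against 28792, 17703 and 47841 in AT3 tumors, and *Ifit3*, a partner of *Ifit1*, at 8671, 7764, 4017 and 3008 against 40949, 24110 and 62606. *Mx1* was at 440.2, 220.4, 321.4 and 153.4 against 1685, 1420 and 2638 (log2 fold change −2.81, SE 0.39, adjusted p = 0.00075 by limma). *Rsad2* was at 750.0, 824.6, 463.6 and 201.3 against 3217, 2058 and 3363 (log2 fold change −2.52, SE 0.47).

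Of the membrane factors, *Bst2* was at 21657, 18587, 9504 and 6724 in M/D tumors against 73241, 40226 and 70661 in AT3 tumors (log2 fold change −2.23, SE 0.43), and *Ifitm3*, which blocks fusion of entering virions, at 44103, 58175, 29411 and 34298 against 194618, 114542 and 213050 (−2.07, SE 0.33). *Ifitm1* went the other way, being 4.77-fold higher in M/D tumors (log2 fold change 2.25, SE 0.64, adjusted p = 0.017 by limma), with groups that overlapped. *Ifi35* was at 601.4, 609.3, 426.5 and 416.8 against 2149, 1228 and 2540 (−1.90, SE 0.30), and *Irf7* had a log2 fold change of −2.67 (SE 0.54). Except for *Ifitm1*, each of the genes named so far in this and the preceding paragraph had a higher value in every untreated AT3 tumor than in any untreated M/D tumor. Of the RNA sensors, *Dhx58* and the Z-nucleic acid sensor *Zbp1* were lower (−1.66 and −1.79), whereas *Ddx58* (−0.084, SE 0.44) and *Ifih1* (−0.77, SE 0.39) were not called. *Irf9*, the DNA-binding part of the type I complex, was not called (−0.034, SE 0.30).

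The 5 genes higher in M/D tumors were *Slfn5*, *Ifitm1*, *Gbp7*, *Samhd1* and *Trim25*. *Slfn5* was at 1969, 1572, 1627 and 1417 in M/D tumors against 149, 181 and 161 in AT3 tumors (9.96-fold higher, log2 fold change 3.32, SE 0.21, adjusted p = 4.0e-05 by limma). *Samhd1* was at 20940, 14730, 12959 and 15013 against 3285, 4215 and 5961 (3.59-fold higher, adjusted p = 0.00077 by limma). *Gbp7* was at 4426, 2418, 2088 and 1061 against 581, 394 and 742 (3.98-fold higher, adjusted p = 0.0063 by limma), but it and *Trim25* were not called with the length trend removed. All 4 of the leukocyte markers looked at were also higher in untreated M/D tumors (deposited sums of 23938 to 35372 against 5011 to 8044), as were 6 of 8 T and NK cell, 4 of 6 macrophage and monocyte, 3 of 5 dendritic cell, 6 of 9 epithelial, 4 of 5 fibroblast and endothelial and 0 of 5 B cell markers. The part of these cells in the differences between the models was not tested.

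The GTPases were divided. *Igtp* was at 21456, 14731, 6691 and 4904 in untreated M/D tumors against 45817, 30356 and 88268 in untreated AT3 tumors (4.93-fold lower, log2 fold change −2.30, SE 0.55, adjusted p = 0.0085 by limma), and *Irgm1*, at 27339, 17397, 9365 and 8427 against 48199, 39175 and 81966, was 3.86-fold lower (log2 fold change −1.95, SE 0.44, adjusted p = 0.0068 by limma). *Gbp2* was at 29453, 15904, 14552 and 10792 against 19360, 11720 and 37317, and *Iigp1* at 31098, 17746, 9506 and 7868 against 26635, 11825 and 63599, so that for both genes the highest AT3 tumor lay above every M/D tumor and the other 2 lay among them. *Gbp2* (−0.31, SE 0.44), *Gbp3* (−1.19, SE 0.52), *Iigp1* (−0.93, SE 0.62) and *Gbp5* (1.10, SE 0.56) were not called and their groups overlapped. Nor was *Irf1* (−0.56, SE 0.32). *Ifng* was not called either, while *Ifnb1*, at 0, 0, 3.0 and 0 in the deposited values of untreated M/D tumors, was called lower than in AT3 tumors, whose values are given above.

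**Figure D5:**
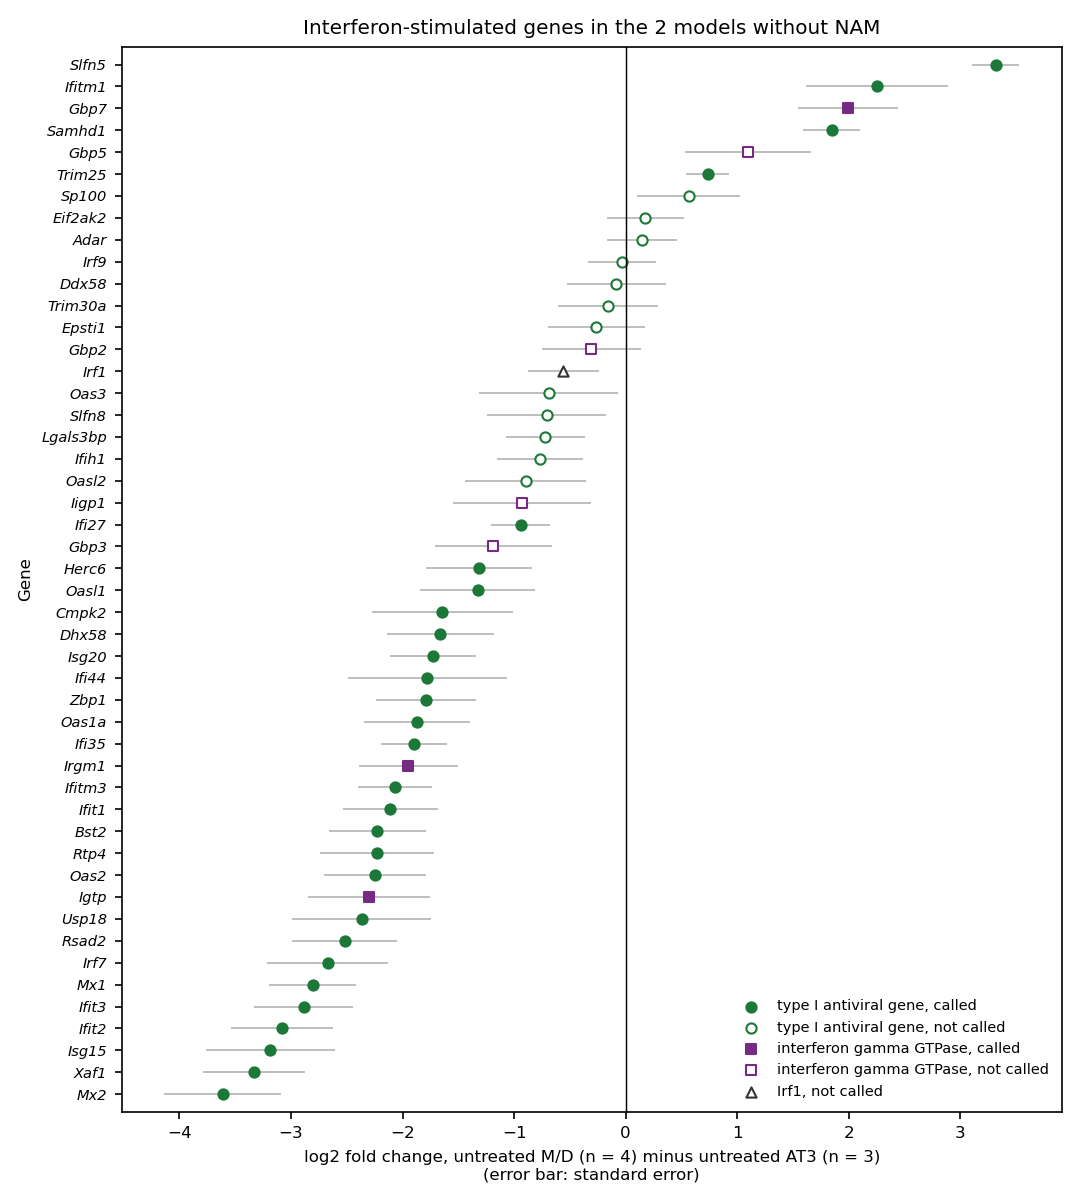
Log2 fold change of the 48 genes, untreated M/D minus untreated AT3 tumors, with standard errors, sorted by value. Filled symbols are called. They run from −3.61 (Mx2) to 3.32 (Slfn5), with 26 filled symbols left of 0, 24 of them circles (type I antiviral genes) and 2 squares (Igtp and Irgm1), and 5 right of 0.

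Other genes of the interferon pathways were looked up from fixed lists, whose counts stand against the 6.22% of all genes called in M/D tumors and, in AT3 tumors, the 12.2% called higher and 10.9% called lower. In M/D tumors, 0 of 6 receptors, 0 of 11 signal transducers, 0 of 10 sensors and adaptors, 0 of 17 further interferon gamma targets and 0 of 22 further type I induced genes were called in either direction by limma, and 0 of them had an unadjusted p of at most 0.05. All 6 receptor genes had log2 fold changes above 0 in M/D tumors, from 0.11 upwards, against 51.1% of all genes tested. These include NAM-treated M/D 1, and values without it are not given for these genes. That tumor was the highest NAM-treated M/D tumor for *Ifngr1* (8157 against 3199 to 3681) and *Ifnar1* (3444 against 2062 to 2703). For the remaining receptors it lay within the range of the other NAM-treated M/D tumors. In AT3 tumors, *Ifnar1*, a chain of the type I receptor, was called higher among the receptors (log2 fold change 0.78, SE 0.23), while *Ifnar2*, its other chain, was at −0.48 (SE 0.25) and not called, and *Jak1* and *Tyk2*, kinases bound to interferon receptors, among the transducers, with log2 fold changes of 0.76 (SE 0.26) and 0.87 (SE 0.30). None of the 3 was called with the length trend removed. *Stat2* was not called (0.46, SE 0.22).

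Of the sensors and adaptors, 4 of 10 were called higher in AT3 tumors. These were *Tlr9*, the endosomal receptor for CpG DNA (31.9, 101.5 and 122.1 against 160.4, 507.1 and 371.7, log2 fold change 2.07, SE 0.58), *Mavs*, the adaptor downstream of RIG-I (0.89, SE 0.30), *Tlr7* and *Tlr3* (0.67, SE 0.28, and 0.66, SE 0.22). *Tlr9* and *Mavs* were also called with the trend removed. Of 16 further interferon gamma targets tested, *Ciita*, the master regulator of MHC class II genes, was at 60.9, 43.7 and 115.6 against 198.0, 234.2 and 247.8 (log2 fold change 1.73, SE 0.39, and 1.14 with the trend removed, called both ways), and *Nlrc5*, its MHC class I counterpart, was called without the removal only (1.11, SE 0.30).

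Of 22 further type I induced genes, *Pml* (log2 fold change 1.47, SE 0.35) and *Dtx3l* (1.15, SE 0.29) were called higher with NAM in AT3 tumors, also with the trend removed. *Oas1b* (−0.63, SE 0.24), *Oas1g* (−0.66, SE 0.25) and *Ifi27l2a* (−1.22, SE 0.42) were called lower, and none of these 3 with the trend removed. *Ifi27l2a*, which encodes a small mitochondrial protein, was at 144425, 50534 and 131443 against 55930, 43464 and 30935, the same picture as *Isg15*, with untreated AT3 2 inside the NAM-treated range. *Oas1b* and *Oas1g* are close paralogs of *Oas1a*, and the counting could have split reads between them.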

How the data were processed

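RNA was selected for polyA tails from 14 tumors, made into TruSeq libraries and sequenced in paired ends. According to the labels and the study's methods, reads were aligned with STAR 2.4.0 to mm10 and counted on the FAST DB annotation. The deposited signal values are counts that the authors divided by DESeq2 size factors, separately for M/D and AT3 tumors, and all were whole reads (tolerance 0.01) once a size factor per tumor was recovered. No column was left unmapped.

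Genes with a mean of at least 10 in 1 group were tested with limma 3.58.1 (R 4.3.3, trend) on log2(normalized count + 1), each model alone. For the interaction, all 14 tumors were fitted together on the values as deposited, which were normalized for each model separately. For the comparison of the untreated tumors of both models, all 14 were rescaled by the median of ratios. Recovered reads were tested with edgeR 4.0.16 and DESeq2 1.42.0 as alternatives. The fitting steps were also run on simulated counts with large known changes and no outlying tumor. That check does not cover smaller changes. Transcript lengths served to remove a trend with length (spline of 4 df) from each tumor, without GC content.

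The 48 genes and all lists were chosen with earlier results of these data known. Values in every tumor are given for genes called (up to 12 a comparison, by p), those with extreme fold changes and a set list of 12 genes. The labels do not say that tumors came from separate mice, so p-values measure the spread between these tumors. The labels name no pairing, and tumors with the same replicate number were not paired in the main fits. Their deviations correlated at −0.44 to 0.11 in M/D and −0.16 to 0.26 in AT3 tumors, too few tumors to decide whether they belong together.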

Additional observations from a re-analysis of the deposited data

Results flagged for a closer look

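In each model and treatment with 4 tumors, every one of the 48 genes was looked at for a tumor far from the other 3 (Dixon's test, 96 groups of 4). Chance alone marks about 1 in 20 groups. In NAM-treated M/D 4 the highest value stood away from the other 3 NAM-treated M/D tumors for *Ifit3* (15876 normalized counts), *Oasl2* (5180), *Samhd1* (16081), *Zbp1* (7964), *Ifi35* (620.1), *Rtp4* (9389) and *Igtp* (37016). In NAM-treated M/D 1, *Oasl1* stood above the other 3 (6861) and *Ifitm3* below them (17988). Among untreated M/D tumors, *Gbp5* stood out in untreated M/D 1 (4008).

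The effect of NAM differed between the models by the interaction test at an unadjusted p of at most 0.05 for *Samhd1* (AT3 effect minus M/D effect 1.42 on the log2 scale), *Slfn5* (1.90) and *Mx2* (−1.73). The adjusted p by limma was 0.20, 0.22 and 0.33, so that none passed the correction over all genes. Without NAM-treated M/D 1, *Mx2* was no longer called.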

How the results depend on the processing

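Of the alternatives to values of single genes, 733 kept direction and side of the threshold, 49 lost the call, 2 gained it and 34 changed sign, and of those to counts and medians 271 held and 49 moved. The cause was not tested. In M/D tumors, genes called numbered 2180 with no filter on low values, 859 at a minimum group mean of 50, 2132 with all 14 tumors in 1 fit and 2095 with DESeq2, against 1350. The log2 fold change of *Usp18* was −0.20 with edgeR and −0.16 with DESeq2. In AT3 tumors, 5 of the 48 genes were lower with DESeq2, 1 at a minimum group mean of 50, with TMM factors or with the length trend removed, and 0 (with 2 higher) with all 14 tumors in 1 fit, against 2 (and 9 higher). With the length trend removed, 5 of the 48 were called higher and 1 lower in AT3 tumors and 2646 genes in all were called, *Usp18*, *Irf1* and *Igtp* were at 0.033, 0.107 and 0.098, the interaction was called for 1 gene upwards, 0 downwards and 2018 in all, and 3 genes were higher in untreated M/D than AT3 tumors. With TMM factors, *Rsad2* and *Irgm1* were at 0.046 and 0.002 in AT3 tumors.

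Leaving out 1 tumor at a time gave 784 to 2712 genes called and 1 to 2 members lower in M/D tumors, with *Irf7* at −0.343 to 0.459, *Usp18* at −0.503 to 0.459, *Irgm1* at −0.03 to 0.54, *Iigp1* at −0.145 to 0.956 and *Igtp* at −0.098 to 0.732. In AT3 tumors it gave 1618 to 6765 genes called, 5 to 10 members higher and 1 to 11 lower, with *Rsad2* at −0.237 to 0.088, *Gbp2* at −0.35 to 0.529, *Ifit1* at −0.334 to 0.01, *Irf1* at −0.405 to 0.237, *Iigp1* at −0.831 to 0.541, *Igtp* at −0.556 to 0.313 and *Irgm1* at −0.318 to 0.226. The interaction was called for 1838 to 4574 genes, 2 to 6 members upwards and 0 to 1 downwards. The type I median ran from −0.268 to 0.303 in M/D and −0.285 to 0.21 in AT3 tumors, and the GTPase median from 0.087 to 0.758 and −0.303 to 0.529.

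The replicate number taken as a block gave 0 members higher and 1 lower in M/D tumors (1001 genes called), 9 higher and 7 lower in AT3 tumors (5082 genes called, with 4 of those members higher and 1 of those lower at an adjusted p of 0.05), and 3 upwards and 0 downwards in the interaction. With that block, 1296 of all 19281 genes tested in AT3 tumors passed the adjusted p. The labels do not say whether same-numbered tumors belong together. Their correlations of −0.44 to 0.26 rest on too few tumors to decide it.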
